A study of Mus musculus with 6 samples.

Results

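Ribosomal proteins are the structural parts of the 2 ribosomes of a mammalian cell, the cytosolic one, which translates nuclear transcripts, and the mitochondrial one, which translates the few proteins encoded in mitochondrial DNA. They were followed here in group 2 innate lymphoid cells (ILC2s), innate counterparts of type 2 helper T cells, which carry no antigen receptor and secrete type 2 cytokines on IL-33 stimulation. Members were taken by gene symbol from a table of 25206 array rows, 1 per Entrez gene, as all symbols that begin with Rpl, Rps, Mrpl or Mrps and go on with a subunit number, without the S6 kinases and without pseudogenes named with -ps. This gave 138 members, 62 for the cytosolic ribosome (39 of its large and 23 of its small subunit) and 76 for the mitochondrial ribosome (48 of its large and 28 of its small subunit). Members without a row under these symbols were not analysed here.

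The knockout group held 3 arrays of ILC2 line cells of C57BL/6J origin transduced with a lentiviral CRISPR construct whose guide targets Cbfb, the partner of the RUNX transcription factors. The control group held 3 arrays of the same kind of line with a guide that has no target, and the cells of both groups were cultured with 10 ng/ml of IL-2 and of IL-33 and sorted for GFP at day 6 after transduction. The labels do not say whether the lines are clones or whether cultures were separate for each array, and the spread behind every p-value here is that between arrays, possibly a technical one. Cbfb itself read 7.88, 7.69 and 7.91 in the knockout arrays, against 8.53, 8.73 and 8.70 in the control arrays, a fall by 0.83 on the log2 scale (limma adjusted p = 0.00205). Array medians lay between 3.57 and 3.63, no value was above 12.51, and the correlation across rows between any pair of arrays was 0.988 or more. Of 10 measured ILC2 markers 9 read above the median of all rows, among them Gata3 at 10.68 in knockout and 10.58 in control and Klrg1 at 11.36 and 11.37. Thy1 read 3.41 in both. In the knockout 4 of the 10 were called lower (Icos, Il7r, Id2 and Il5), which is 40.0%. Of all rows 4.24% were called lower, and 7.75% of the rows above the median. Of 19 markers of T, B, NK, mast and myeloid cells and of stroma and epithelium, 13 read under that median. The 6 above it were Pecam1, Epcam, Itgax, Cd3g, Cd8a and Col1a1. Pecam1 read 10.61 in knockout and 10.92 in control, near the level of Gata3. Epcam ran from 7.98 to 8.04 in the knockout arrays and from 7.83 to 8.11 in the control arrays. Itgax read 4.77 and 5.81, Cd3g 5.31 and 5.16, and Col1a1 4.46 and 4.56. Cd8a ran from 4.06 to 4.19 in knockout and from 4.29 to 4.99 in control. Of the 19, those that changed were Itgax and Pecam1, both lower in the knockout. Summed over the list, ILC2 markers reached 99.07 to 99.54 log2 units in the knockout arrays and 101.5 to 101.79 in the control arrays, and sums of other lists were lower too, with no overlap. Macrophage and dendritic cell markers summed to 9.07 to 9.98 in the knockout arrays and 10.6 to 11.21 in the control arrays. Mast cell and basophil markers summed to 9.99 to 10.56 and 10.72 to 10.98, and stroma and epithelium markers to 22.78 to 23.26 and 23.43 to 23.52. Single genes weigh heavily in such short lists. Itgax differed by -1.04, beside -0.18 for Adgre1 and -0.15 for Csf1r. Pecam1 differed by -0.31, beside -0.10 for Col1a1 and 0.02 for Epcam. The sums of T, B and NK cell markers overlapped between the groups, and the part of any of these lists in the results below was not tested.

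In most cells the genes of cytosolic ribosomal proteins are transcribed at very high levels and regulated as a group, mainly in translation through the pyrimidine tract at the start of their transcripts, which mTORC1 and LARP1 act on. Mitochondrial ribosomal proteins are also encoded in the nucleus, made in the cytosol and imported, and their ribosome makes core subunits of the respiratory chain and of ATP synthase. Lymphocytes enlarge both sets of ribosomes when they are activated and grow.

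Mitochondrial ribosomal protein genes lay slightly below control as a set. Their median change was -0.15 on the log2 scale, and 57 of the 76 had a lower mean in the knockout arrays, while over all 25206 rows the median change was -0.0067 and 50.8% lay below 0. Only 6 of the 76 passed the test, all lower (Mrps33, Mrpl33, Mrps23, Mrpl20, Mrps28 and Mrpl16), which is 7.89%, against 4.24% of all rows called lower, and 0 were called higher, against 5.51% of all rows (limma, adjusted p under 0.05). At an unadjusted p under 0.05, 25 were lower (32.9%) and 1 was higher (1.32%), against 10.9% of all rows lower and 12.0% higher. In 29 members (38.2%) every knockout array read below every control array, against 13.4% of all rows, and in 6 (7.89%) every knockout array read above, against 14.1%. In bulk RNA, fewer cells with a high level and less RNA per cell cannot be told apart.

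Calls were more frequent among brighter rows, and 74 of the 76 mitochondrial members read above the median level of all rows. Among the 12601 rows above that median, 17.0% were lower at an unadjusted p under 0.05, 20.8% had all knockout arrays below all control arrays, and 7.75% passed the test as lower. The 74 bright mitochondrial members had 33.8%, 39.2% and 8.11% by the same measures. Their share called lower thus lay near that of the bright rows, while the share separated and lower was higher. In the other direction 1.35% of the 74 were higher at an unadjusted p, 8.11% were separated and higher, and 0 passed as higher. The bright rows had 20.3%, 23.1% and 10.3%. A fit on the 12601 bright rows alone called 16 of these 74 lower and 1 higher, where it called 12.4% of its rows lower and 15.5% higher. A trended and robust prior on all rows called 15 of the 76 lower and 1 higher, against 6.45% of all rows lower and 7.5% higher.

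For the cytosolic set the median change was -0.06, with 41 members below 0, 20 above and 1, the large subunit gene Rpl4, at no difference (11.58 in both groups). By the test 6 of the 62 were lower (9.68%, against 4.24% of all rows), namely Rps4l, Rps15a, Rps2, Rpl3, Rpl10a and Rpl5, and 1 was higher (1.61%, against 5.51%), the stalk protein gene Rplp1. At an unadjusted p under 0.05, 10 were lower (16.1%) and 2 higher (3.23%), and the arrays of the groups were separated in 11 members that were lower (17.7%) and 2 that were higher (3.23%). Over all rows 10.9% were lower and 12.0% higher at an unadjusted p under 0.05, and the arrays were separated in 13.4% that were lower and 14.1% that were higher. The 46 cytosolic members above the median level had 8.7% called lower, 17.4% lower at an unadjusted p and 19.6% separated and lower, against 7.75%, 17.0% and 20.8% of the bright rows, so their lower shares lay near the background. Their higher shares lay below it, with 2.17% called higher, 4.35% higher at an unadjusted p and 4.35% separated and higher. The bright rows had 10.3%, 20.3% and 23.1% by these measures. A difference between the sets was not tested. The cytosolic median was -0.128 without knockout replicate 1, -0.103 without control replicate 1 and -0.0208 without knockout replicate 2.

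Array by array, the same difference can be set out against the control mean, which holds the control arrays near 0 by construction. Relative to the control mean of every row, the median mitochondrial member read -0.11, -0.165 and -0.143 in knockout replicates 1, 2 and 3, against 0.0017, 0.0083 and 0.01 in the control arrays. For the cytosolic set the medians were -0.06, -0.105 and -0.065 in the knockout arrays, against 0.0067, -0.0083 and 0.015 in the control arrays. All rows together gave 0, 0.0033 and -0.02 in the knockout arrays, against 0.0067, -0.0017 and -0.0033 in the control arrays. The plain median level of the mitochondrial members was 6.825, 6.835 and 6.855 in the knockout arrays, against 6.91, 6.98 and 6.95 in the control arrays, without overlap. That of the cytosolic members was 4.845, 4.82 and 4.98 in the knockout arrays, against 4.93, 5.085 and 5.135 in the control arrays, and here knockout replicate 3 read above control replicate 1.

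**Figure D1:**
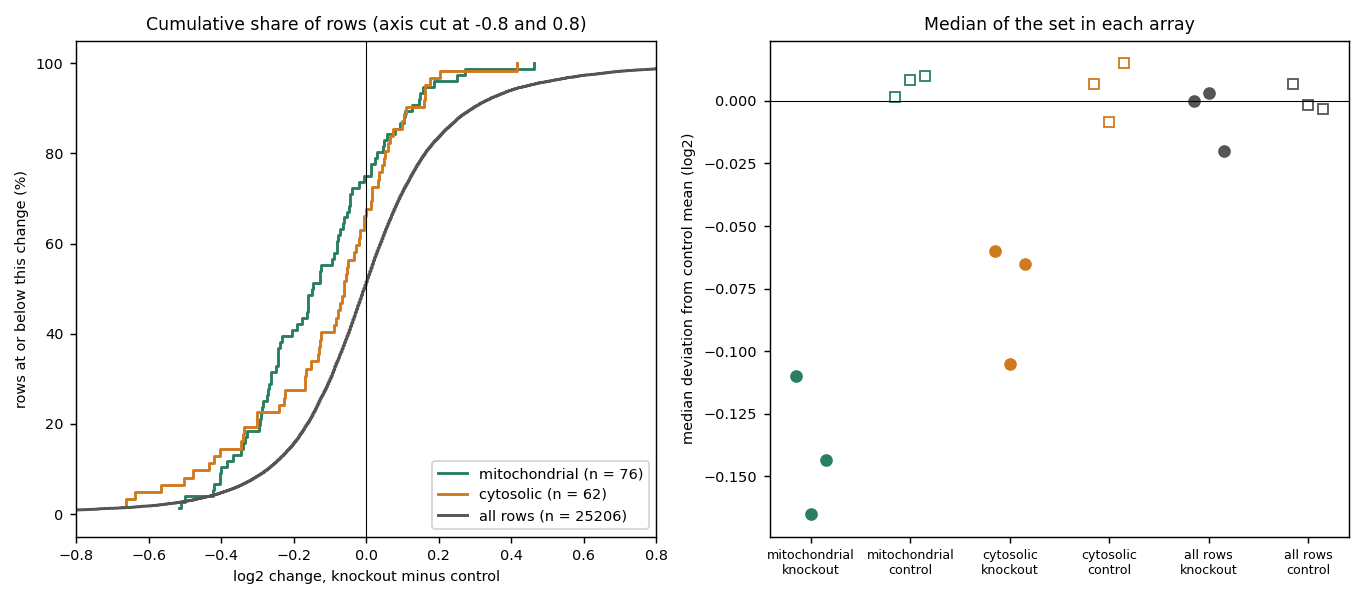
Left, the cumulative percentage of rows (y axis) at or below each log2 change, knockout minus control (x axis), for mitochondrial members, cytosolic members and all rows. Right, the median deviation from the control mean in log2 units (y axis) in each array, with filled circles for knockout and open squares for control; the mitochondrial knockout arrays sit at -0.165 to -0.11, the cytosolic ones at -0.105 to -0.06.

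The subunits of the mitochondrial ribosome were taken apart, without a test of a difference between them. Of the 48 large subunit members 39 lay below 0, with a median change of -0.16, and the arrays were separated in 21 that were lower (43.8%) and 3 that were higher. Of the 28 small subunit members 18 lay below 0, with a median of -0.08, 8 (28.6%) were separated and lower, and 3 (10.7%) were separated and higher. Over all rows 13.4% were separated and lower, and over the bright rows 20.8%. Separated and higher were 14.1% of all rows and 23.1% of the bright rows. Each subunit had 3 members past the test, all lower, which is 6.25% of the large and 10.7% of the small subunit. Called lower were 4.24% of all rows and 7.75% of the bright rows, and called higher 5.51% and 10.3%. In the cytosolic ribosome the large subunit had 24 of 39 members below 0 (median -0.033; 3 called lower, 1 higher) and the small subunit 17 of 23 (median -0.073; 3 called lower).

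**Figure D2:**
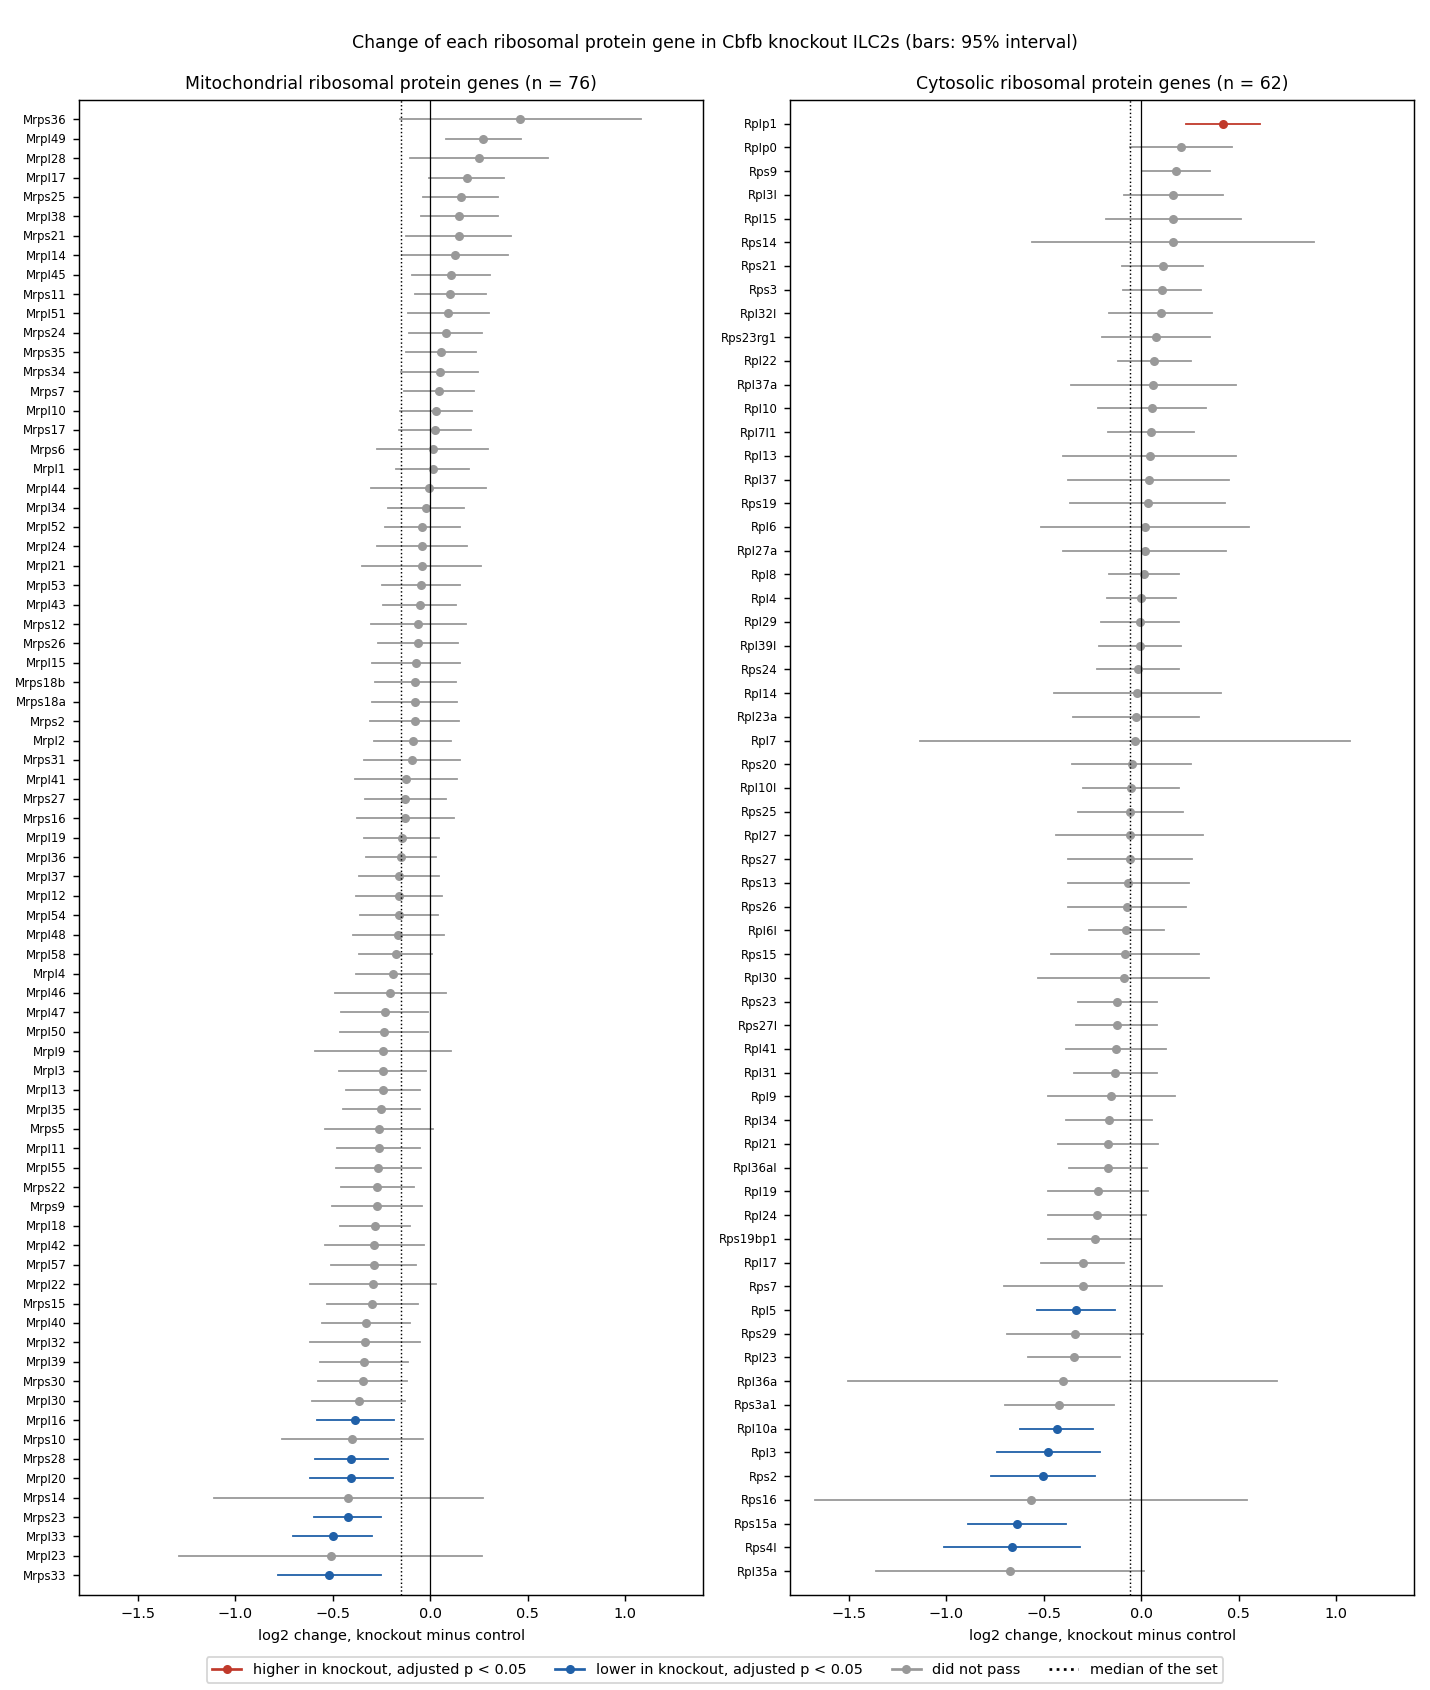
Change of each of the 76 mitochondrial and 62 cytosolic members on the log2 scale, knockout minus control (x axis), with the 95% interval of the limma fit as a bar and the set median as a dotted line. Blue and red mark the 12 members called lower and the 1 called higher; the mitochondrial points lie mostly left of 0.

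The mitochondrial member with the lowest fitted change was Mrps33, a small subunit protein. It read 5.73, 5.89 and 5.49 in the knockout arrays, against 6.30, 6.14 and 6.22 in the control arrays, and fell by 0.52 (SE 0.115, limma adjusted p = 0.0275). All knockout arrays were below the control arrays, though replicate 3 lay furthest down. Mrpl33, a small protein of the large subunit, read 8.40, 8.41 and 8.23 in knockout, against 8.82, 8.92 and 8.80 in control, and fell by 0.50 (SE 0.0887, adjusted p = 0.0112), so that 70.7% of the control signal was left. Mrps23, a small subunit protein, read 7.80, 7.79 and 7.79 in knockout, against 8.18, 8.24 and 8.23 in control. It fell by 0.42 (SE 0.0754, adjusted p = 0.0114).

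Mrpl20, a large subunit protein related to bacterial L20, read 6.11, 6.02 and 6.27 in knockout, against 6.57, 6.55 and 6.49 in control, and fell by 0.40 (adjusted p = 0.03). Mrps28 of the small subunit read 6.57, 6.58 and 6.54 in knockout, against 6.88, 7.04 and 6.98 in control, and also fell by 0.40 (adjusted p = 0.0188). Mrpl16, the large subunit relative of bacterial L16, read 5.56, 5.59 and 5.75 in knockout, against 5.99, 6.05 and 6.01 in control, and fell by 0.38 (adjusted p = 0.0281). None of these 6 had overlapping groups, and on a linear scale their falls were 1.30-fold to 1.43-fold. Without control replicate 2, 0 mitochondrial members passed (19 were lower at an unadjusted p under 0.05), without knockout replicate 1 or control replicate 3, 2 passed as lower, and without knockout replicate 2, 3 did (limma). Of the 6 fits with an array removed, Mrpl33 and Mrps23 passed in 5 and missed the threshold without control replicate 2 (adjusted p = 0.0516 and 0.0524). Mrps33, Mrpl20, Mrps28 and Mrpl16 passed in 1 of these 6 fits each. With 1 array fewer in any group the count at an unadjusted p under 0.05 was 16 to 23, lowest without knockout replicate 2. Calls over all rows fell in these fits as well, from 2457 with all arrays to between 1307 and 1837.

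The next members, just outside the threshold, were Mrpl18 (adjusted p = 0.06), Mrpl30 (0.0679) and Mrps30 (0.0706). Mrpl18, a large subunit protein, read 8.60, 8.68 and 8.68 in knockout, against 8.94, 8.97 and 8.90 in control, a difference of -0.28. Mrpl30 differed by -0.37 and Mrps30 by -0.35, each with separated groups. Mrpl39 (-0.34), Mrpl40 (-0.33), Mrps15 (-0.30), Mrpl57 (-0.29), Mrps22 (-0.27) and Mrpl11 (-0.26), the last a protein at the base of the factor-binding stalk, had separated groups too and did not pass.

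Other mitochondrial members at sites of known function did not pass. The stalk proteins Mrpl10 and Mrpl12 differed by 0.03 (95% interval -0.15 to 0.21) and -0.16 (-0.38 to 0.06). Mrps12, the counterpart of the bacterial decoding-centre protein S12, differed by -0.06 (-0.30 to 0.18). The tunnel-exit proteins Mrpl22, Mrpl24 and Mrpl45 differed by -0.29, -0.04 and 0.11, and Mrpl23, at the same site, read too unevenly to place (2.80, 3.78 and 2.42 in knockout, against 3.91, 3.09 and 3.53 in control). The related small subunit genes Mrps18a and Mrps18b both differed by -0.08, and Mrps27 by -0.13, Mrps6 by 0.01 and Mrpl44 by -0.0067.

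Of the 19 mitochondrial members above 0, 0 passed (limma; 1 at an unadjusted p under 0.05). Mrpl49, a large subunit protein, came closest, at 7.19, 7.09 and 7.19 in knockout, against 6.95, 6.80 and 6.90 in control (difference 0.27, limma adjusted p = 0.0867). It was called higher in 2 of 11 alternative fits, on bright rows alone (adjusted p = 0.0286) and with the trended prior (0.0312), and in 0 of the 6 without 1 array. Mrps36, which is also known as a subunit of the 2-oxoglutarate dehydrogenase complex, had the highest fitted value, 0.46, with an interval of -0.16 to 1.08. Mrpl38 differed by 0.15 (-0.05 to 0.35). Mrpl28, a large subunit protein, differed by 0.25 (-0.10 to 0.60) and was called higher without control replicate 3, which stood above the other control arrays (5.60, against 4.98 and 5.10; limma adjusted p = 0.0489).

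**Figure D3:**
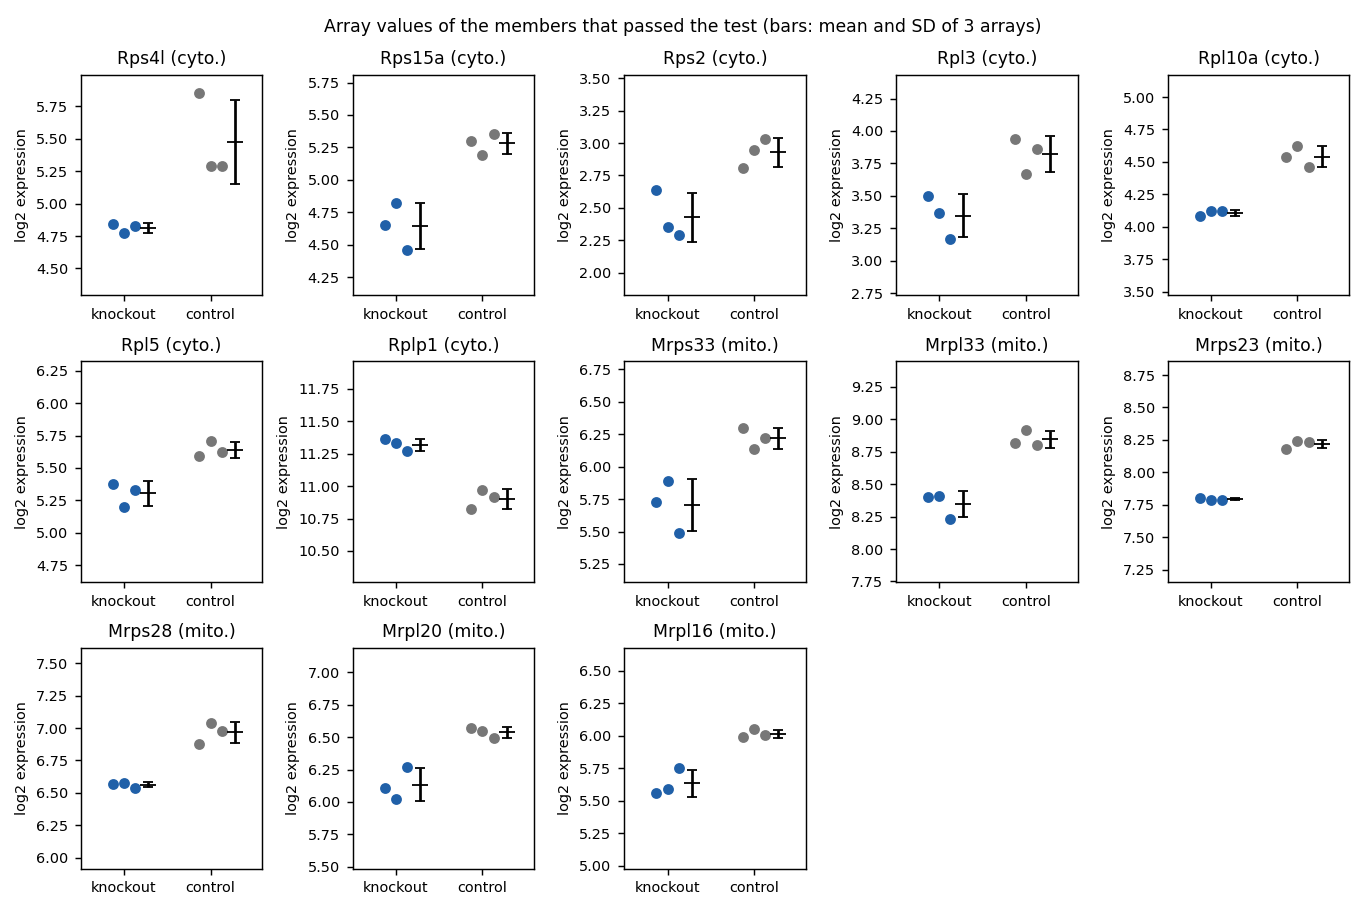
Log2 expression (y axis) of the 13 members past the test in each of the 3 knockout arrays (blue) and 3 control arrays (grey), with the mean and SD beside each group; every panel spans the same 1.7 log2 units. The groups do not overlap in any panel, and Rplp1 alone is higher in the knockout.

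Among cytosolic members the P stalk, which recruits elongation factors to the ribosome, held the 1 rise. Rplp1 read 11.36, 11.33 and 11.27 in the knockout arrays, against 10.82, 10.97 and 10.92 in the control arrays, and rose by 0.42 (SE 0.0825, limma adjusted p = 0.0174), or 1.33-fold. Its values lie in the upper part of the range, and saturation, which narrows differences there, cannot be seen in these values. Rplp0, which anchors the stalk, read 4.83, 5.04 and 5.24 in knockout, against 4.88, 4.77 and 4.85 in control, with overlapping groups (0.20, adjusted p = 0.352). Rplp1 passed in 3 of the 6 fits without 1 array and missed the threshold without knockout replicate 1, knockout replicate 2 or control replicate 3 (highest adjusted p = 0.0612).

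Of the falls, that of Rps15a, a small subunit protein that binds the 18S ribosomal RNA, was the steadiest. It read 4.65, 4.82 and 4.46 in knockout, against 5.30, 5.19 and 5.35 in control, and fell by 0.64 (SE 0.109, adjusted p = 0.0099), 1.55-fold. It passed in all 11 alternative fits (adjusted p 0.00365 to 0.0404). Rps4l, which RefSeq lists as a transcribed pseudogene, read 4.84, 4.77 and 4.83 in knockout, against 5.85, 5.29 and 5.29 in control. It fell by 0.66 (adjusted p = 0.0305), with control replicate 1 standing apart from the others. Rps2, a protein at the channel through which messenger RNA enters, read 2.64, 2.35 and 2.29 in knockout, against 2.81, 2.95 and 3.03 in control, and fell by 0.50 (adjusted p = 0.0309).

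Rpl3, which reaches the peptidyl transferase centre, read 3.50, 3.37 and 3.17 in knockout, against 3.94, 3.67 and 3.86 in control, and fell by 0.48 (adjusted p = 0.0376). Rpl10a, the protein of the L1 stalk beside which spent transfer RNA leaves, read 4.08, 4.12 and 4.12 in knockout, against 4.54, 4.62 and 4.46 in control. It fell by 0.43 (adjusted p = 0.0142) and passed in 10 of 11 alternative fits, all except the one without control replicate 2. Rpl5, which binds the 5S ribosomal RNA and, outside the ribosome, can inhibit Mdm2, read 5.38, 5.20 and 5.33 in knockout, against 5.59, 5.71 and 5.62 in control. Its fall by 0.34 was just inside the threshold (adjusted p = 0.0484), and it missed it in each of the 6 fits without 1 array (adjusted p 0.07 to 0.162). Without 1 array Rps4l passed in 3 of 6 fits and Rps2 in 2. Rpl3 passed without knockout replicate 1 (limma adjusted p = 0.0405). It also passed without control replicate 2, at the very edge of the threshold (limma adjusted p 0.05 after rounding). Just outside lay Rps3a1 (-0.42, adjusted p = 0.0721), Rpl23 (-0.35, 0.0783) and Rpl17 (-0.30, 0.0889). Without knockout replicate 2 or knockout replicate 3, 2 cytosolic members were called lower, and without control replicate 2 or control replicate 3, 3 were. In these fits 1307 to 1565 of all rows changed, against 2457 with all arrays.

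Of the 10 members that are named as copies of another member or only share the name, 7 lay below 0, with a median of -0.065, and Rps4l alone passed. Rps27l, a p53-responsive relative of Rps27, differed by -0.13 (95% interval -0.33 to 0.08), and Rps27 by -0.06 (-0.38 to 0.26). Rpl36al and Rpl36a differed by -0.17 and -0.40, and the Rpl36a arrays ran from 2.33 to 4.34 in knockout. Rpl3l, the muscle form of Rpl3, differed by 0.16, Rpl7l1 by 0.05, Rpl10l by -0.05, Rpl32l by 0.10 and Rpl39l by -0.0067, while Rpl7 and Rpl10 differed by -0.03 and 0.05. Rpl6l, which RefSeq lists as a pseudogene, differed by -0.08. Rpl22, known for its role in T cell development, read 11.25 ± 0.038 in knockout and 11.18 ± 0.07 in control (SD, n = 3; limma adjusted p = 0.71). Rps19, Rps23, Rps15 and Rps3 differed by 0.03, -0.12, -0.08 and 0.10, and Rps9 by 0.18 with separated groups (adjusted p = 0.21, and 0.0124 with the trended prior). None of the genes whose differences are given here passed the test. Leaving out these 10, the copies with -like symbols and Rps19bp1, a nucleolar protein, kept 52 members with the same median of -0.06, among them the Rps23 copy Rps23rg1.

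The level of the cytosolic rows limits what can be read from them. Cytosolic ribosomal protein transcripts are abundant in most cells, yet 16 of the 62 rows read under the median of all rows, among them Rpl10 at 1.91 in knockout and 1.86 in control, Rps2 and Rpl3. RMA compresses differences near background, and these changes can be understated. These genes also have many processed pseudogenes, and a row's value does not tell their transcripts from those of the parent gene. The table holds 18 rows for such pseudogenes, of which 0 passed the test (limma; 1 was higher and 0 lower at an unadjusted p under 0.05), with a median change of -0.0067. The 1 higher was Rps15a-ps6, a copy of Rps15a, at 4.93, 5.21 and 5.46 in knockout, against 4.85, 4.56 and 4.79 in control, without overlap and opposite in direction to the Rps15a row (difference 0.47, limma adjusted p = 0.0898). Some of these rows read high, for example Rpl34-ps2 at 10.62 in knockout and 10.66 in control and Rpl31-ps20 at 10.0 and 10.08.

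**Figure D4:**
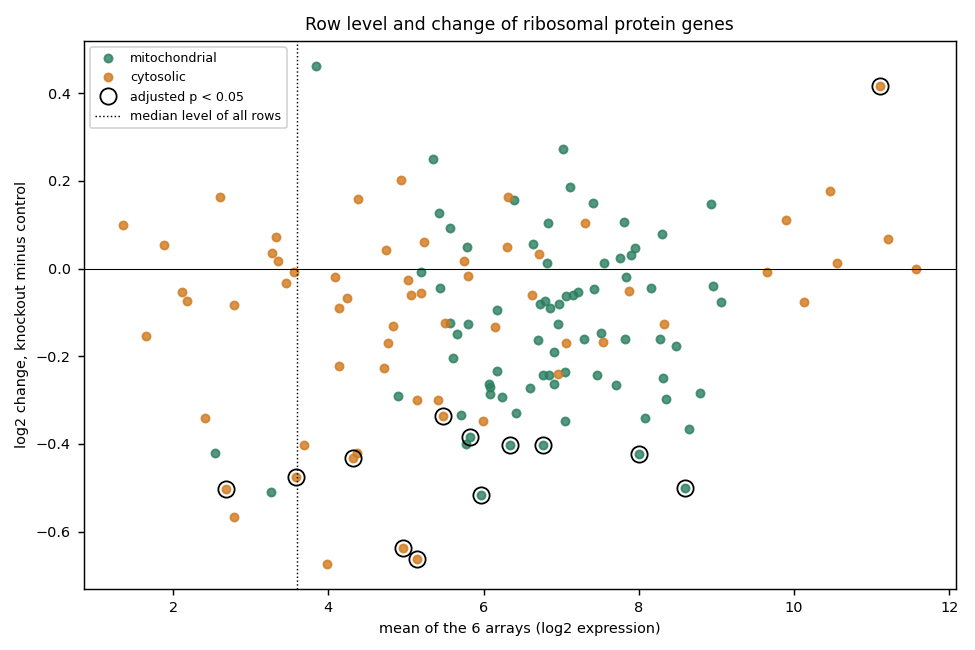
Mean log2 expression over the 6 arrays (x axis) and log2 change, knockout minus control (y axis), of each mitochondrial and cytosolic member, with members past the test circled and the median level of all rows dotted. Mitochondrial members crowd between 5 and 9 while cytosolic members spread from 1.36 to 11.58.

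Promoter sequence was looked at for the members that passed, since the targeted protein works with DNA-binding partners. RefSeq promoters on build GRCm38.p6, from 250 bases before to 50 after an annotated start, were found for 115 of the 138 members (48 cytosolic, 67 mitochondrial) and for 9 of the 13 that passed. The letters of the RUNX core site, TGTGGT on either strand, stood in 4 cytosolic members (8.33%), 8 mitochondrial members (11.9%) and 3 of the 9 that passed, against 18.9% of 27025 genes. These 3 are shown from 250 bases before to 25 after the start, in gene direction, with every match to a searched motif in capitals. In Rps2 (chr17:24719813-24720087, plus strand) the match begins 40 bases before the start, in Mrpl33 (chr5:31613701-31613975, plus strand) 113 bases before, and in Mrps33 (chr6:39810912-39811186, minus strand) 211 and 160 bases before.
Rps2: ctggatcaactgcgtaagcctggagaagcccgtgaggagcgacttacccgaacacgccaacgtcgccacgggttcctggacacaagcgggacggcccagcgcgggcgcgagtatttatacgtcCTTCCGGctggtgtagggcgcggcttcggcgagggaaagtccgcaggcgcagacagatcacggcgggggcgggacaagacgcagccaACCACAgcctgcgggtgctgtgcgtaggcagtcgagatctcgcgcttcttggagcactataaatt
Mrpl33: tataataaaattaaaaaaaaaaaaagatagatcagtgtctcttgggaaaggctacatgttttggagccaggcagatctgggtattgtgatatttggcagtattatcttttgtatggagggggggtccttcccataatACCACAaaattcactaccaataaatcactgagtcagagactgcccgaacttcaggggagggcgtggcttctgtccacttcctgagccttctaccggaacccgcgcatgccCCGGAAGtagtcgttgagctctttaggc
Mrps33: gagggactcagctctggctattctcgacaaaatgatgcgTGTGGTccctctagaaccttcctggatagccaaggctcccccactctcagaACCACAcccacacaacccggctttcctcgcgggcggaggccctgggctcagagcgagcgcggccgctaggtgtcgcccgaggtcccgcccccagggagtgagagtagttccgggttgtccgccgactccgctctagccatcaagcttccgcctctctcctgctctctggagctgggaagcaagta
The capitals TGTGGT or ACCACA are the RUNX letters and CCGGAAG or CTTCCGG those of an ETS site.

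Other motifs common at housekeeping promoters were searched the same way, on both strands, and 0 pairs of matches overlapped in the promoters shown. The ETS letters CCGGAAG, bound by GABPA among others, stood in 33.3% of cytosolic and 35.8% of mitochondrial members, against 9.93% of all genes. The YY1 letters AAGATGG stood in 16.7% and 19.4%, against 7.28%. Promoters of the members were richer in G and C, with medians of 55.8% in the cytosolic and 58.0% in the mitochondrial set, against 52.8% over all genes, and the shares were not corrected for this. Examples, from 100 bases before to 25 after the start with the match in capitals, are Rps15a with a YY1 match (chr7:118116123-118116247, minus strand) and Mrps23 with an ETS match (chr11:88204288-88204412, plus strand).
Rps15a: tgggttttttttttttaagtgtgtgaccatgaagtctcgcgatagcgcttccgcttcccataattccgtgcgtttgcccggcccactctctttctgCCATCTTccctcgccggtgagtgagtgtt
Mrps23: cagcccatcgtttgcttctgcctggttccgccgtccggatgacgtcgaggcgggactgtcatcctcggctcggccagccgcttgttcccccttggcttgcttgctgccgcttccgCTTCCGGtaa
A match is a run of letters and not a measured site, and these windows hold no binding data.

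Genes that work with the ribosomes under other names were read from lists of their own. Of 22 measured assembly factors of the mitochondrial ribosome 2 were higher (9.09%), 0 were lower and the median change was 0.03, where 5.51% of all rows and 10.3% of the bright rows were called higher, so this count is near the background. Rbfa, which matures the small subunit, read 8.22 ± 0.055 in knockout and 7.70 ± 0.049 in control (SD, n = 3; limma adjusted p = 0.00657), and Mterf3, which acts in mitochondrial transcription and large subunit assembly, rose by 0.32 (adjusted p = 0.0368). Mtg2, Fastkd2, Ngrn and Mrm2 differed by 0.26, -0.28, 0.30 and 0.27 and did not pass. Of 12 translation factors Gfm2, which recycles mitochondrial ribosomes, rose by 0.39 (adjusted p = 0.0362) and Gfm1, the elongation factor G of mitochondria, fell by 0.32 (adjusted p = 0.0465), with a list median of -0.042. The 1 call in each direction is 8.33% of the list. Of the bright rows 10.3% were called higher and 7.75% lower, so these counts are near the background. Tsfm and Mtrf1 differed by -0.31 and -0.34, C1qbp by -0.19 and Tufm by 0.20. The mitochondrial ribosomal proteins under other names, Ptcd3, Dap3, Chchd1 and Gadd45gip1, differed by -0.18, 0.08, -0.02 and 0.02. Without 1 array, Rbfa passed in 6 of 6 fits, Gfm2 in 1, and Mterf3 and Gfm1 in 0. A difference between these lists and the members was not tested.

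On the cytosolic side a list held 13 genes whose transcripts carry a pyrimidine tract, mostly translation factors but also Npm1, Nap1l1 and Tpt1. Of the 13, 0 passed the limma test, with a median change of -0.013. At an unadjusted p under 0.05, 1 was higher (7.69%) and 3 were lower (23.1%). By that measure 12.0% of all rows were higher and 10.9% lower, and 20.3% and 17.0% of the bright rows. Eef1a1, which brings aminoacyl transfer RNA, read 5.25 ± 0.47 in knockout and 5.91 ± 0.39 in control, Eif3f differed by 0.28, Eef1d by -0.31, Npm1 by -0.38, Eef2 by 0.16 and Eif3h by 0.16. Rpsa and Fau, ribosomal proteins under other names, differed by -0.44 and -0.09. Among 11 genes of the mTORC1 and LARP1 pathway, Rptor, the scaffold that presents substrates to mTORC1, read 7.88 ± 0.068 in knockout and 7.30 ± 0.087 in control and rose by 0.58 (SD, n = 3, limma adjusted p = 0.00538), in 6 of 6 fits without 1 array. This 1 call is 9.09% of the list, against 5.51% of all rows and 10.3% of the bright rows called higher, a count near the background. Eif4ebp1 (-0.36), Rheb (-0.28), Eif4e (-0.18), Mlst8 (0.16) and Tsc2 (0.19) did not pass, nor did Larp1 (-0.14) or Mtor (0.06).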

How the data were processed

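RNA from sorted cells was measured on single-colour arrays in 3 knockout and 3 control samples, grouped by the sample titles. The deposited values are log2 expression values, and per the submitters' processing notes RMA and limma 3.14.4 were used, with no role given. The log2 scale was read from the values, and the genome build of the array is not given in the sources used here. Quantile normalisation, part of RMA, hides a change shared by most genes. No detection calls were used, and the number of arrays limits the precision.

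No rows were filtered out and no further normalisation was applied. The fit was limma 3.58.1 in R 4.3.3 on all 25206 rows, knockout minus control, with two-sided moderated tests and Benjamini-Hochberg adjustment over all rows at 0.05. All 23185 named rows matched RefSeq by Entrez number. A further 2021 rows had no symbol, so they could not be taken as members but count among all rows. The fit was tested on simulated data, where 143 rows were called, 8 of them falsely. It recovered 16 of 67 rows changed by 0.5 log2 units (23.9%), 53 of 67 changed by 1 and 66 of 66 changed by 2. Only these rows were changed in the simulation, and row spreads were shuffled among rows. In the data 2457 rows passed, so the adjustment was less strict there than in the simulation. Recovery for the members themselves was not measured. A member that did not pass can still have changed by an amount of about 0.5.

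The members and lists were chosen with earlier results of these data known. Named were all members past the threshold, fixed members of known role (36 of 46 had a row), the members nearest the threshold on both sides and up to 6 genes of each other list by adjusted p, together with further members by the size of their change, which were chosen after their values were seen. Alternatives were each array left out, a block for the replicate number, quantile normalisation again, centring of columns, rows above the median level (3.6), a trended and robust prior, and the members without -like copies and Rps19bp1.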

Additional observations from a re-analysis of the deposited data

How the results depend on the processing

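The mitochondrial median change stayed below 0 in every alternative, at -0.154 to -0.126 with 1 array left out, the highest without control replicate 3. The cytosolic median ran from -0.128 to -0.0208 with 1 array left out, nearest 0 without knockout replicate 2, and was -0.087 after quantile normalisation again. Members below 0 numbered 54 to 57 in the mitochondrial set and 33 to 44 in the cytosolic set with 1 array left out. Counts of calls were the less stable values, and 2457 of all rows changed with all arrays. With 1 array left out, 1307 to 1837 of all rows changed, 0 to 4 mitochondrial and 2 to 4 cytosolic members were lower, and 0 to 1 of either set was higher; mitochondrial members lower at an unadjusted p under 0.05 numbered 16 to 23. Over the rows above the median level, 16 mitochondrial members were lower and 1 higher, and with a trended and robust prior 15 were lower, 1 mitochondrial member was higher and 2 cytosolic members were higher. Deviations of same-numbered arrays had correlations of 0.025, 0.007 and 0.054, and those of arrays with other numbers -0.065 to 0.044. Deviations from a mean of 3 arrays are tied to each other, and pairing cannot be told from these values. The numbers were not taken as pairs. With the replicate block 1745 rows changed, 3 cytosolic and 2 mitochondrial members were lower, and 0 cytosolic members were higher. Of 1056 values of 97 named genes under the alternatives, 73 no longer passed, 45 newly passed and 938 kept their side of the threshold, 43 of these with another sign. The cause of these movements was not tested. Some of the settings also leave fewer arrays or rows in the fit.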
